A study of Mus musculus with 6 samples.

Results

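The Isg15 conjugation system was followed through 6 mouse genes: the modifier Isg15, its activating enzyme Uba7, its conjugating enzyme Ube2l6, the ligases Herc6 and Trim25, and the protease Usp18. They were chosen by name as the parts of one pathway, with the low levels of interferon-stimulated genes in the miR-497 libraries already known. Their difference between the groups is therefore given as a description, with no p-value. All 6 were among the 14661 genes tested, of 55401 genes in the deposited table.

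RNA came from ADC106, a mouse angiosarcoma line recorded as wild type. Angiosarcoma is a malignant tumour of the cells that line vessels. The cells received either a mimic labelled NC or an miR-497 mimic, each at 12.5 nM, and RNA was taken on day 3. Each group had 3 poly(A)-enriched libraries, and cells without a mimic were not analysed here. Nothing in the labels says whether the 3 libraries of a group came from separate cultures, so every p-value below measures the spread between these libraries, which may be technical.

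Isg15 is a small protein related to ubiquitin that interferon induces. Like ubiquitin, it is activated by an E1 enzyme, passed to an E2 enzyme and joined by an E3 ligase to lysines of other proteins. Usp18 cuts it off again. In cells that line vessels, as in most cell types, the genes of this cycle are switched on together by type I interferon through a complex that holds Stat2 and Irf9, and the conjugates are known for restricting viruses.

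A microRNA mimic is a short RNA duplex whose guide strand pairs through its seed with transcripts. The sample titles name the mimic that differs between the groups but do not give its sequence. The mature mouse sequence is printed here in its place. It is taken from RefSeq on GRCm38.p6 (chr11:70234730-70234751, plus strand), 5′ to 3′, and capitals mark the seed, bases 2 to 8.
miR-497a-5p: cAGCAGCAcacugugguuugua

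A site for this seed was taken as TGCTGCT, or as GCTGCTA. In the longest annotated 3′ UTR of each gene, such a site was present in 28.1% of the 12859 tested genes with a 3′ UTR, and in 2 of the 6 members. Herc6 had 1 TGCTGCT in 1718 bases and Trim25 had 1 GCTGCTA in 3572 bases. Isg15, Uba7, Ube2l6 and Usp18 had none in 160, 110, 1020 and 400 bases, against a median of 1187 bases over the tested genes. The stretches around both sites are shown with the seed match in capitals, read from the GENCODE M21 transcripts, 5′ to 3′.
Herc6: aatgacatataTGCTGCTgtgacaatcac
Trim25: aatctctccagGCTGCTAgttacttgggc

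The library totals ranged from 25777676 to 36159499 counts. All 12 endothelial marker genes were above 1 CPM (the counts of a gene scaled to the size of the library) in every library, including Pecam1, Cdh5 and Kdr. Of these 12, 4 were called lower and 6 higher with miR-497, and their summed level was 10310 to 11040 CPM with NC and 9809 to 10350 CPM with miR-497. Of 8 leukocyte markers only Cd68, which is not specific to leukocytes, was above 1 CPM in every library. Cd3e and Itgam were listed at 0, and the summed leukocyte level was 9.53 to 10.7 CPM with NC and 15.8 to 21.1 CPM with miR-497. Of 7 fibroblast markers 5 were above 1 CPM throughout, with Lum listed at 0, and their sum was 306.5 to 326 CPM with NC and 451 to 547 CPM with miR-497. None of the 4 epithelial markers was above 1 CPM in every library. The leukocyte and fibroblast sums were higher in every miR-497 library than in any NC library. The single genes did not all follow: 2 fibroblast markers were called higher and 2 lower. Of the leukocyte markers 1 was called higher and 0 lower. The part of these cell types in the results below was not tested. In RNA from a whole culture, fewer cells that make a transcript and less transcript per cell cannot be told apart.

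All 6 members were lower with miR-497. In every case the 3 miR-497 libraries lay below the 3 NC libraries, which was also true of 29.6% of all tested genes. All 6 were called lower at an adjusted p under 0.05 in edgeR's quasi-likelihood test, where 26.0% of tested genes were lower and 23.8% higher. The difference was at least 2-fold for 5 members, and 5.19% of tested genes were called lower by at least 2-fold. The members' median log2 fold change was -2.00, beside -0.02 over all tested genes. These counts describe genes that were chosen with this contrast known, and nothing is read from them. The size of the difference was uneven, from 1.63-fold for Trim25 to 14.4-fold for Isg15.

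**Figure D1:**
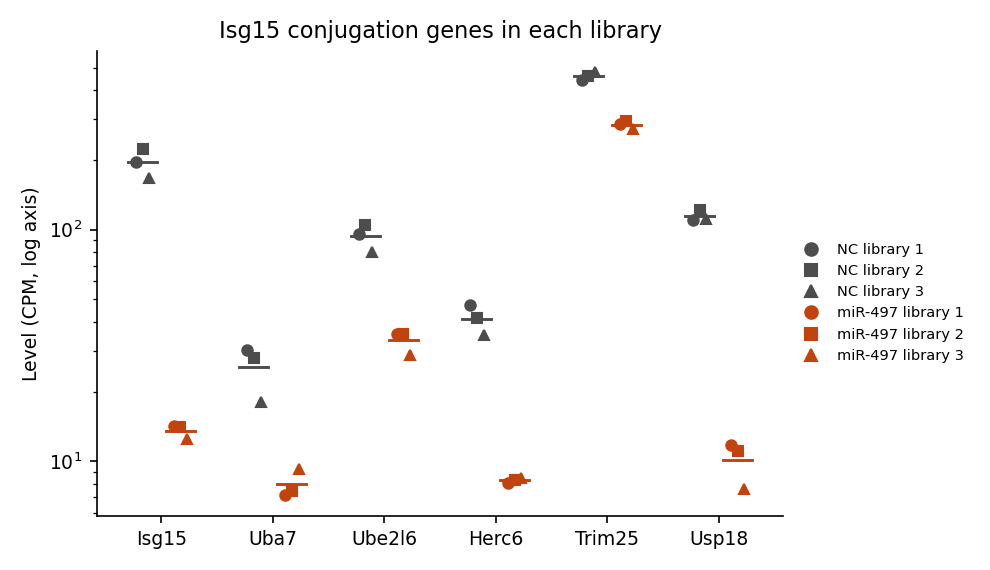
Level of each Isg15 conjugation gene in each library, in CPM on a log axis; points are single libraries, with a marker shape for each library number, and bars are group means. Isg15 lay between 166.9 and 222.6 CPM with NC and between 12.5 and 14.2 CPM with miR-497, and Trim25 showed the smallest gap.

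The modifier itself, Isg15 (ENSMUSG00000035692, GRCm38 chr4:156199424-156200818, minus strand), had 195.8, 222.6 and 166.9 CPM with NC and 14.2, 14.1 and 12.5 CPM with miR-497, each in the order of library 1, 2 and 3, as for the values that follow. The lowest NC library was 11.8 times the highest miR-497 library, and the groups did not overlap. The mean went from 195.1 ± 27.9 to 13.6 ± 0.916 CPM (SD, n = 3), or -3.85 as a log2 fold change (SE 0.0965). Only 34 of the 14661 tested genes, or 0.232%, had a lower log2 fold change. Its raw counts were 4699 to 8127 with NC and 356 to 447 with miR-497. A processed pseudogene, AC151275.1, matches 482 bases of the Isg15 transcript at 95.2% identity, and it was listed at 0 in all libraries.

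The activating enzyme Uba7 (ENSMUSG00000032596, chr9:107975505-107984060, plus strand), the E1 that starts the chain by charging Isg15, had 30.2, 28.1 and 18.1 CPM with NC and 7.20, 7.43 and 9.29 CPM with miR-497. NC library 3 was clearly below the other two, and the spread within NC (highest over lowest 1.67) was the widest of the 6 members. The groups still did not overlap. The log2 fold change was -1.68 (SE 0.160), or 3.20-fold lower. Uba7 shares 3.48% of its exon bases with Gm20661 on the same strand, which makes a small part of its count uncertain.

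The conjugating enzyme Ube2l6 (ENSMUSG00000027078, chr2:84798828-84810335, plus strand), an E2 also able to carry ubiquitin, had 96.2, 104.8 and 79.99 CPM with NC. In the miR-497 libraries it had 35.5, 35.5 and 28.8 CPM. All miR-497 values were below all NC values, and library 3 was the lowest of each group. The log2 fold change was -1.50 (SE 0.0976), or 2.82-fold lower. Stretches of 129 to 508 bases of its transcript match 12 transcripts of other genes at 90% identity or more, so the assignment of some of its reads is uncertain.

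Of the ligases, Herc6 (ENSMUSG00000029798, chr6:57581000-57664632, plus strand) is the HERC enzyme known as the main Isg15 ligase of mouse cells. Its levels were 47.3, 41.6 and 34.99 CPM with NC and 8.08, 8.34 and 8.47 CPM with miR-497. The miR-497 libraries were close to each other, with a highest over lowest of 1.05. The log2 fold change was -2.32 (SE 0.107), or 4.98-fold lower. Gm45193 covers 13.7% of its exon bases on the same strand.

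Trim25 (ENSMUSG00000000275, chr11:88999376-89020293, plus strand), a ligase for Isg15 and for ubiquitin that also acts on the RNA sensor RIG-I, stood apart from the other members. It had 442.9, 459.4 and 479.8 CPM with NC and 285.9, 293.1 and 271.2 CPM with miR-497. NC library 3, the lowest NC library for Isg15, Uba7, Ube2l6 and Herc6, was the highest for Trim25. The log2 fold change was -0.70 (SE 0.0545), or 1.63-fold lower, and 12.1% of tested genes had a lower one.

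The protease Usp18 (ENSMUSG00000030107, chr6:121245906-121270917, plus strand) removes Isg15 from its targets and, apart from that, binds Ifnar2 and dampens interferon signalling. It had 110.6, 122.1 and 111.0 CPM with NC and 11.7, 11.1 and 7.58 CPM with miR-497. Library 3 was the lowest of the miR-497 group, where the highest over lowest was 1.55, against 1.10 with NC. The log2 fold change was -3.51 (SE 0.114), or 11.4-fold lower, next to Isg15 in size. Gm44148 covers 4.44% of its exon bases on the opposite strand, and whether strand was used in counting is not given in the sources used here.

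To order the members by level, CPM was divided by length, as CPM per kb of annotated exon. With NC the order was Isg15 at 258 ± 36.8, Trim25 at 80.1 ± 3.22, Ube2l6 at 46.9 ± 6.30, Usp18 at 41.1 ± 2.34, Herc6 at 4.45 ± 0.665 and Uba7 at 3.81 ± 0.969 CPM per kb (SD, n = 3). Ube2l6 and Usp18 overlapped in their libraries, as did Herc6 and Uba7. With miR-497 the order was Trim25 at 49.3 ± 1.94, Isg15 at 17.98 ± 1.21, Ube2l6 at 16.7 ± 1.95, Usp18 at 3.63 ± 0.799, Uba7 at 1.19 ± 0.171 and Herc6 at 0.893 ± 0.0213 CPM per kb (SD, n = 3). Isg15 was first with NC and second with miR-497, where its libraries overlapped those of Ube2l6. With the longest coding transcript as the length, Usp18 (64.7 CPM per kb) came before Ube2l6 (60.03) with NC and Ube2l6 (21.3) before Isg15 (17.98) with miR-497. The E1 and the ligase Herc6 had the lowest levels per length in both groups.

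Relative to Isg15 in the same library, the enzymes took another place with miR-497. The ratios and the summed CPM given here are not divided by length. They are read between the groups and do not order the members by level. The CPM of Ube2l6 was 49.1%, 47.1% and 47.9% of that of Isg15 with NC, and 251%, 252% and 230% of it with miR-497. For Uba7 the same ratio was 15.4%, 12.6% and 10.8% with NC and 50.8%, 52.8% and 74.1% with miR-497. Herc6 stood at 24.2%, 18.7% and 21.0% with NC and at 57.0%, 59.3% and 67.5% with miR-497. All 3 conjugating genes were thus higher relative to Isg15 in every miR-497 library than in any NC library. Trim25 moved most: its CPM was 206% to 287% of that of Isg15 with NC and 2020% to 2160% with miR-497. Of the summed CPM of the 6 genes, which was 923.1, 978.6 and 890.8 with NC and 362.7, 369.5 and 337.8 with miR-497, Isg15 held 18.7% to 22.7% with NC and 3.71% to 3.91% with miR-497.

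Usp18 was the exception. Its log2 ratio to Isg15 was -0.82, -0.87 and -0.59 with NC and -0.27, -0.35 and -0.73 with miR-497, so the groups overlapped. The mean ratio was -0.76 ± 0.15 with NC and -0.45 ± 0.243 with miR-497 (SD, n = 3), a difference of 0.31. Whether this ratio differed between the groups was not tested. Because these ratios use the same CPM values as the fold changes, they are another view of them and not further evidence.

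**Figure D2:**
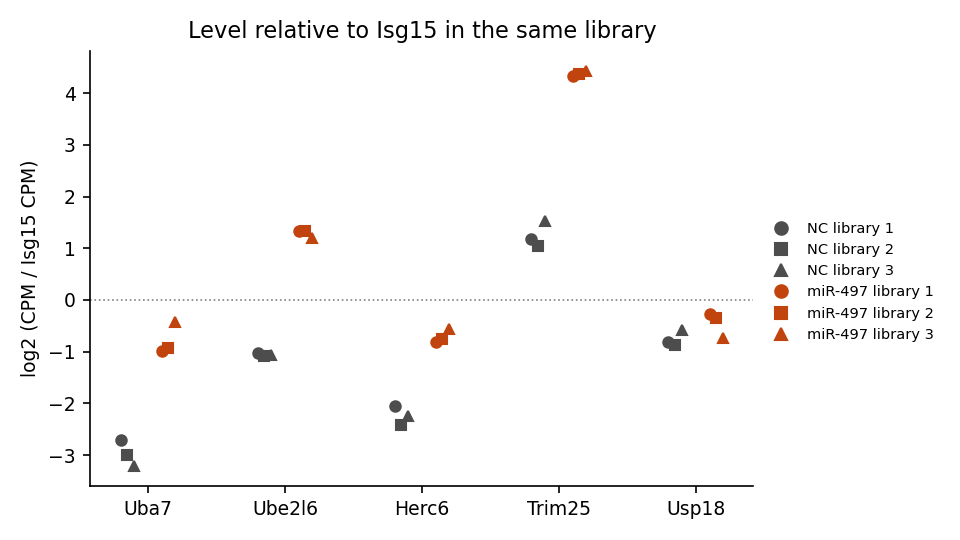
Level of each enzyme relative to Isg15 in the same library, as log2 of the CPM ratio, not divided by length. Points are single libraries and the dotted line marks equal CPM. The points of Usp18 overlap between the groups, whereas those of Uba7, Ube2l6, Herc6 and Trim25 are all higher with miR-497.

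The promoters of the members were read next. RefSeq windows of 250 bases before to 50 bases after the start were found for 5 members, Isg15, Uba7, Ube2l6, Herc6 and Trim25, in a table of 32851 windows. The core of the interferon-stimulated response element was searched as GAAANNGAAA on both strands. It occurred in 3.44% of all windows and in 1 of the 5 members. Isg15 had 3 overlapping copies, from -78 to -57 bases from the start, and only 5 of the 32851 windows held 3 or more. A shorter interferon regulatory factor (IRF) site, AANNGAAA, which lies inside the longer core, was found in 23.9% of windows and in 3 of the 5 members, Isg15, Uba7 and Trim25. The gamma-activated site TTCNNNGAA, known from the response to interferon gamma, was in 8.30% of windows and in none of the 5. A missing match says only that these letters are not in that window.

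Whether interferon signalling uses any of these matches was not tested. Those of Uba7 and Trim25 are only the shorter site, which 23.9% of windows held. The Trim25 match spans the start, from -4 to 4. The stretches with matches are shown because the response element is a known entry point of interferon signalling. They are given 5′ to 3′ on the strand of the gene, from RefSeq on GRCm38.p6, with matches to either form of the IRF site in capitals. They lie at chr4:156200860-156200961 (minus strand) for Isg15, chr9:107975525-107975562 (plus strand) for Uba7 and chr11:88999384-88999421 (plus strand) for Trim25.
Isg15: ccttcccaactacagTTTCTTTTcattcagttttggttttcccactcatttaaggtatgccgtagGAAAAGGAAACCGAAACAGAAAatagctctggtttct
Uba7: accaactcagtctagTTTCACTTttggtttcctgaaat
Trim25: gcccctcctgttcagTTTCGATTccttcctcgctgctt

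**Figure D3:**
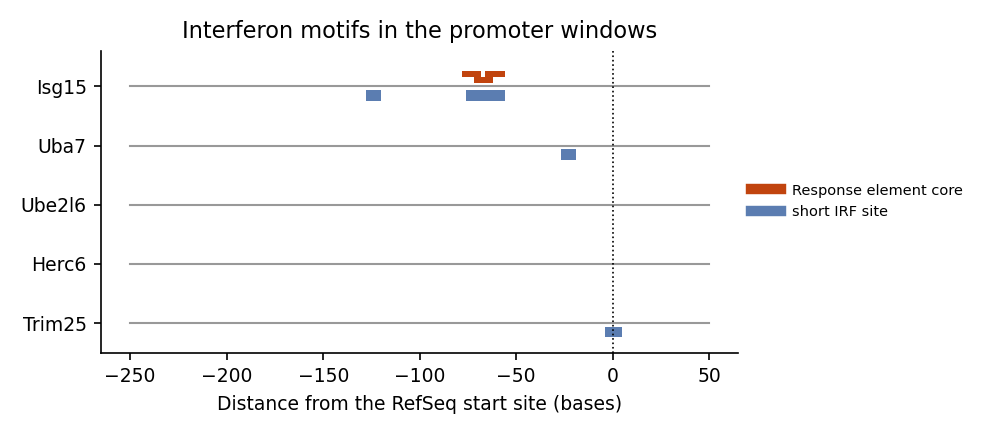
Positions of the interferon motifs in the promoter windows of 5 members, as distance in bases from the RefSeq start site; red boxes are the response element core and blue boxes the shorter IRF site. Isg15 is the one window with the core, in 3 overlapping copies between -78 and -57.

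Other genes of the interferon pathway were taken from a list written from general knowledge. The 13 tested genes, listed from the receptor to the Irf factors, also held Socs1, Socs3 and Skp2. Of the 13, 8 were lower, Socs1 and Socs3 among them, and 2 higher. Over all tested genes 26.0% were lower and 23.8% higher. The median log2 fold change of the 13 was -0.51 (-0.02 over all tested genes). Among the 13, those with the smallest adjusted p-values included transcription factors of this pathway. Stat2 fell by 1.99 on the log2 scale (SE 0.0646, adjusted p = 5.08e-13 by edgeR). Irf7, a factor that interferon itself induces, fell by 2.87 (SE 0.0971, adjusted p = 8.32e-13 by edgeR). The 2 higher genes were the receptor chains Ifnar1 (0.18, SE 0.0605, adjusted p = 0.0205 by edgeR) and Ifnar2 (0.37, SE 0.0918, adjusted p = 0.0032 by edgeR), although their count of 2 became 1 when NC library 1, NC library 2 or miR-497 library 2 was left out. The ligand gene Ifnb1 was too low to be tested, with 9, 26 and 4 counts with NC and 0, 7 and 0 with miR-497.

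Beside 30 other interferon-stimulated genes, the members spanned most of the range. All 30 were called lower and 29 passed 2-fold, with log2 fold changes from -5.26 (Oas2) to -0.93 (Ifi35) and a median of -2.76. The smallest adjusted p-values were those of Ifit3, an antiviral protein that binds RNA with Ifit1 (-4.25, SE 0.0868, adjusted p = 3.48e-15 by edgeR), and of Cmpk2, a nucleotide kinase (-3.14, SE 0.0668, adjusted p = 4.35e-15 by edgeR). Of the 30 genes, 6 had a lower log2 fold change than Isg15, 9 than Usp18 and 17 than Herc6. For Uba7 and for Ube2l6 this held for 25 of the 30, and for Trim25 for all 30. The list was written with the fall of such genes known, so neither its direction nor its p-values are independent evidence.

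Proteins reported to carry Isg15 formed another list from general knowledge. Of 18 tested genes 8 were lower and 4 higher, with a median of -0.13. Over all tested genes 26.0% were called lower and 23.8% higher, with a median of -0.02. Of the lower ones, Ifit1 (-3.19, SE 0.0866, adjusted p = 8.32e-14 by edgeR) and Ifih1, the RNA sensor MDA5 (-2.30, SE 0.0882, adjusted p = 4.5e-12 by edgeR), are interferon-induced, as are Mx1, Eif2ak2 and Ddx58. These 5 also stand in the list of 30. Among the other 13, 3 were lower, including Irf3 and Pcna, and 4 were higher, including Chmp5, Tsg101 and Trp53.

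The relatives of the members in other modifier systems are given as counts beside those over all tested genes, of which 26.0% were called lower and 23.8% higher with a median of -0.02. Of 20 tested modifiers and E1 enzymes outside the Isg15 system, 9 were lower and 5 higher, with a median of -0.15. Uba1, the ubiquitin E1 and a relative of Uba7, fell from 740.4 ± 32.8 to 543.8 ± 29.5 CPM (SD, n = 3), which is a change on the log2 scale of -0.45 (SE 0.0582, adjusted p = 7.05e-06 by edgeR). Uba6, the other E1 known for ubiquitin, fell by 0.52 (SE 0.0675, adjusted p = 7.04e-06 by edgeR). Ubl5, a ubiquitin-like protein known from splicing, fell by 1.15 (SE 0.0761, adjusted p = 2.49e-09 by edgeR). The polyubiquitin gene Ubb rose by 0.33 (SE 0.0617, adjusted p = 0.000255 by edgeR). Near-identical copies of ubiquitin genes make the value of Ubb uncertain. Ubd, the interferon-inducible modifier FAT10, was listed at 0 in all libraries.

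Of 31 tested E2 enzymes other than Ube2l6, 12 were lower and 6 higher, with a median of -0.07. Ube2l3, the E2 most like Ube2l6, fell from 67.93 ± 2.903 to 58.0 ± 1.37 CPM (SD, n = 3), which is a change on the log2 scale of -0.23 (SE 0.0624, adjusted p = 0.00595 by edgeR). The smallest adjusted p-values were those of Ube2g2, an E2 of the endoplasmic reticulum (-1.40, SE 0.0726, adjusted p = 1.43e-10 by edgeR), Cdc34, which works with SCF ligases (-0.97, SE 0.0559, adjusted p = 4.93e-10 by edgeR), and Ube2s of the anaphase-promoting complex (-1.07, SE 0.0699, adjusted p = 2.18e-09 by edgeR). None of the 5 genes listed as other HERC ligases and Arih1 was called lower, and 2 were higher. Herc4 was higher (0.38, SE 0.0712, adjusted p = 0.00029 by edgeR), as was Herc1 (0.21, SE 0.0708, adjusted p = 0.0211 by edgeR), which lost its call without NC library 2 (0.163) or miR-497 library 2 (0.102). Herc3, at 8.19 ± 1.10 and 8.24 ± 1.22 CPM (SD, n = 3), differed by 0.0068 on the log2 scale (SE 0.151, adjusted p = 0.975 by edgeR).

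Of 45 tested USP proteases other than Usp18, 21 were lower and 6 higher, with a median of -0.23. Usp25 fell from 151 ± 3.74 to 68.3 ± 2.82 CPM (SD, n = 3), which is a change on the log2 scale of -1.15 (SE 0.0547, adjusted p = 5.42e-11 by edgeR), the one call of at least 2-fold in this list. Usp12 fell by 0.68 (SE 0.0584, adjusted p = 5.97e-08 by edgeR) and Usp19 fell by 0.57 (SE 0.0547, adjusted p = 2.29e-07 by edgeR).

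**Figure D4:**
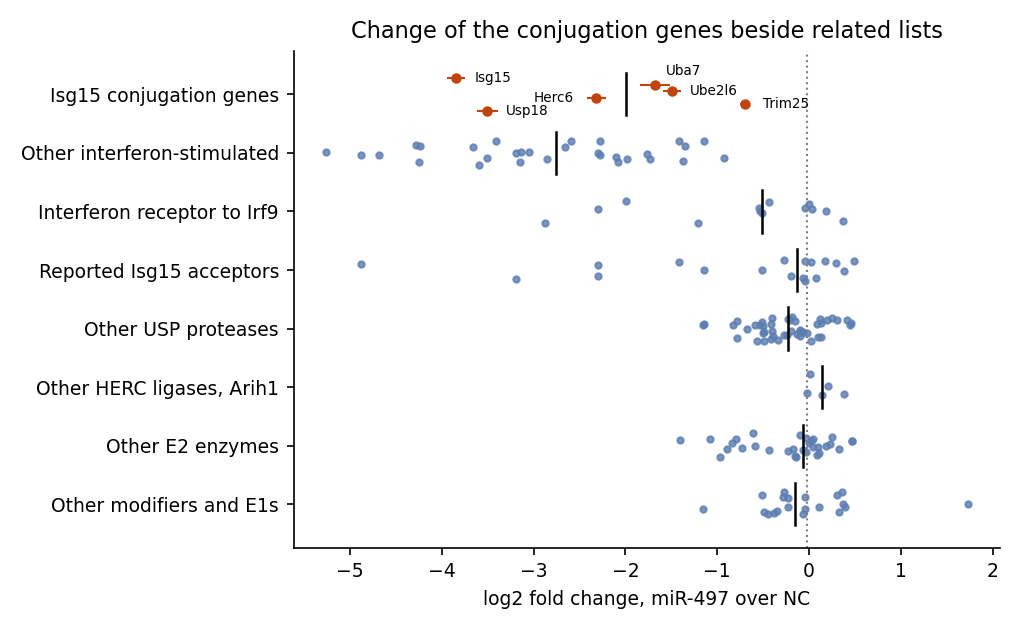
Log2 fold change, miR-497 over NC, of the 6 conjugation genes (red, with standard error) and of the tested genes of 7 related lists (blue, 1 point per gene, spread vertically for visibility); black bars are medians and the dotted line is the median of all tested genes, -0.02. The members run from -3.85 to -0.70, beside a median of -2.76 for the other interferon-stimulated genes and of -0.07 for the other E2 enzymes.

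The neighbours of the members on the chromosome were examined after the members' values had been seen. The nearest tested gene by start position on each side gave 12 genes, of which 6 were lower and 1 higher, with a median log2 fold change of -0.57. Not all of them lie close by. Their distances ran from 0 bases, for the overlapping Gm20661 and Gm44148, to 657068 bases, for Nt5c3 beside Herc6. Nt5c3 was among the 6 lower genes. Over all tested genes 26.0% were called lower and 23.8% higher, with a median of -0.02. Whether position had a part in these differences was not tested. Both neighbours of Isg15 were lower. Agrn, which encodes the basement membrane proteoglycan agrin and lies 1936 bases away, had 240.3, 247.9 and 233.3 CPM with NC and 84.3, 96.8 and 92.9 CPM with miR-497 (log2 fold change -1.40, SE 0.0586, adjusted p = 1.18e-11 by edgeR). AW011738, 2486 bases away on the other side, had 13.4, 11.7 and 8.67 CPM with NC and 1.31, 2.64 and 2.43 CPM with miR-497 (-2.38, SE 0.225, adjusted p = 1.72e-07 by edgeR). At Usp18, the overlapping Gm44148 was lower at a level below 2 CPM (-2.21, SE 0.432, adjusted p = 0.000405 by edgeR). Without strand, reads in the exon stretch that it shares with Usp18 cannot be assigned to one of them. Near Ube2l6, neither Serping1 (edgeR adjusted p = 0.061, which became 0.0408 without NC library 2 and 0.0295 without miR-497 library 3) nor Timm10 (edgeR adjusted p = 0.298) passed the threshold. The only higher neighbour was Gm11496 at Trim25, with an edgeR adjusted p of 0.0463 that reached 0.124, 0.156, 0.0597 and 0.245 without NC library 1, NC library 2, miR-497 library 1 or miR-497 library 3.

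The genes whose pattern was most like the mean of the 6 members were found over the 6 libraries, as the root mean square distance of log2 CPM centred on the NC mean. The mean of the members lay at 0.07, 0.11 and -0.18 with NC and at -2.17, -2.16 and -2.29 with miR-497. Among the 6 nearest were Tor3a (distance 0.081), H2-K1 (0.089), Rtp4 (0.101), Ifit2 (0.104) and Gbp7 (0.104). NC library 3 was the lowest NC library for Tor3a, at -0.19, and for H2-K1, at -0.24, as for the mean of the members. Among the members, only Herc6 was as near to their mean (0.090), while Isg15 lay at 1.12 and Trim25 at 1.07. The other 3, Uba7, Ube2l6 and Usp18, lay at 0.483, 0.522 and 0.899. The mean profile is therefore close to that of Herc6 and not to that of any other member.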

How the data were processed

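The authors deposited raw counts of reads per gene for 6 libraries. STAR 2.5.4b, featureCounts, Subread 1.6.1, edgeR 3.32.1 and GRCm38 are named in the submitters' processing notes. The annotation, the strand setting and the handling of multiply aligned reads are not given in the sources used here. Groups and replicate numbers came from the titles. Symbols were attached by identifier for 55141 of 55401 genes, and loci, exons and 3′ UTRs came from GENCODE M21 (GRCm38).

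Counts were fitted with edgeR 4.0.16 in R 4.3.3 (filterByExpr with a minimum count of 10 and total of 15, TMM, quasi-likelihood F-test, group as the only term). Two-sided p-values for 14661 genes were adjusted together by the Benjamini-Hochberg method, and a gene was called at 0.05. The standard error was the log2 fold change divided by the square root of F. CPM used TMM-scaled library sizes; log2 CPM had a pseudocount of 0.5. Similar transcripts (at least 90% identity over 100 bases) were found with BLAST 2.17.0. The fit was tested on simulated data. The members and lists were chosen with earlier results of these data known. The p-values of interferon-stimulated genes in the lists are therefore not independent evidence. Named genes were the members, the 3 smallest adjusted p per list, the closest family relatives (Uba1, Ube2l3, Herc3 and Ubb among them), and the 6 nearest patterns with a mean log2 CPM of at least 2; genes named beyond these were chosen after their values were seen. Alternatives were DESeq2 1.42.0 size factors and Wald test, upper-quartile scaling, no filter, a mean count of 50, limma 3.58.1 voom, the replicate block and leaving out each library. Some genes that enter the counts are not reported by name here.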

Additional observations from a re-analysis of the deposited data

How the results depend on the processing

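The log2 fold changes of the 6 members kept their direction in all 78 pairs of member and alternative, and none moved by more than the spread between replicates. Over the alternatives Isg15 ran from -3.94 to -3.74, Usp18 from -3.62 to -3.33, Herc6 from -2.41 to -2.22, Uba7 from -1.86 to -1.55, Ube2l6 from -1.59 to -1.40 and Trim25 from -0.74 to -0.66. The genes called over the whole table ran from 3029 to 3998 higher and from 3374 to 3995 lower. With the replicate number as a block, Isg15 was at -3.84, and 3177 genes were higher and 3563 lower. Same-numbered libraries did not deviate together (correlations of -0.146, -0.0453 and -0.176). With 3 libraries per group these correlations cannot decide whether equal numbers mark shared cultures, and the labels do not say. The block changed no call on a named gene and moved no count of calls by over 1.5 times.

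Leaving out single libraries gave 1 to 3 higher genes among the other HERC ligases and Arih1 and 1 to 2 higher genes from the receptor to Irf9, with fewer samples in the fit. The shorter IRF site, chosen after seeing the data, was in 3 member promoters in place of 1. Herc3 lay near 0 and changed sign, to -0.007 with limma voom and to between -0.079 and 0.126 without single libraries. A wider promoter window was not run, since the promoter table holds shorter windows. Depth limits Ifnb1 and neighbours under 2 CPM, such as Serping1 and Gm37397.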
